A study of Mus musculus with 39 samples.

Results

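Oxidative phosphorylation is the set of mitochondrial protein complexes that turn the energy of fuel oxidation into ATP, and its nuclear-encoded subunit genes were followed here through mouse liver RNA sequencing. Members were all gene symbols that start as a complex I subunit (Nduf with A, B, C, S or V and a number), as Sdha to Sdhd, as Uqcr, as Cox4 to Cox8, or as Atp5, which gave 77 of the 11873 symbols in the table. They comprise 33 symbols of complex I, 4 of complex II, 7 of complex III, 15 of complex IV, 17 of complex V and the pseudogene Ndufs5-ps. Ndufa4 and its paralog Ndufa4l2 are counted here with complex IV despite their names. The livers came from C57BL/6 mice aged 3 to 5 months that breathed 21% or 6% oxygen for 4 h. Exposure began at circadian time 4 (CT4, ending at CT8) or 16 (CT16, ending at CT20), on a day kept dark after 2 weeks of 12 h light and 12 h dark, with food always available. Alb mice carried Alb-Cre alone and served as controls. HLKO mice carried Alb-Cre with floxed Hif1a, the oxygen-regulated transcription factor, and BLKO mice carried Alb-Cre with floxed Bmal1 (Arntl), the core clock activator. Every group thus carried the Cre transgene, which the albumin promoter drives in hepatocytes, and the other cells of the liver kept both genes. The 36 libraries, lettered A to C within a group, form 12 groups of 3 by genotype, time and oxygen. Nothing in the labels says whether the 3 libraries of a group came from separate mice, so p-values measure the spread between these libraries.

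Electrons enter the chain from NADH at complex I and from succinate at complex II, pass through ubiquinone to complex III and through cytochrome c to complex IV, where oxygen is reduced. The proton gradient built on the way drives ATP synthesis by complex V. In liver this supplies the ATP for gluconeogenesis and urea synthesis, and in other tissues HIF is known to curb respiration in low oxygen and to swap single subunits, Ndufa4l2 being a known HIF target.

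Library totals ran from 1717589 to 5196957 counts, with 10813 to 11693 genes detected, and the 77 symbols took 2.78% to 3.36% of each library's counts. Levels are CPM, the counts of a gene scaled to its library's total after TMM normalization. Differences are log2 fold changes ± SE from edgeR's quasi-likelihood test over 9483 genes, with two-sided p-values adjusted by Benjamini and Hochberg within each comparison, and a gene was called at an adjusted p under 0.05. Of the 77 symbols 76 passed the filter on low counts, the exception being Cox6b2, a testis isoform of complex IV, at 0 to 1.83 CPM. The targeted genes were not called lower in their own knockouts: Hif1a differed by -0.37 ± 0.24 in HLKO (adjusted p = 0.270) and Arntl by -0.03 ± 0.15 in BLKO (adjusted p = 0.941). At CT4 the median of Arntl was 8.59 CPM for BLKO against 5.52 CPM for Alb, and at CT16 it was 13.3 against 18.5 CPM. Gene counts include reads outside a deleted exon, so these levels check neither deletion, and HLKO and BLKO are the libraries labelled so. Dbp, a clock output gene, had a median of 10.9 CPM in the 6 BLKO libraries of CT4 and 159 CPM in the 6 Alb libraries. All 8 hepatocyte markers were present, led by a gene at 37054 CPM. Of red cell markers only Alas2, and of skeletal muscle markers 1 of 6, were in the table.

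The subunits differed widely in level. Per kilobase of annotated exon, the highest mean over the 36 libraries was that of Cox6a1, the isoform of cytochrome oxidase subunit 6a found in liver, at 2211 CPM per kb. It was followed by Atp5g3, one of the genes for the rotating c-ring of ATP synthase, at 1816 CPM per kb, Uqcr11, a small complex III subunit, at 1661 CPM per kb, and Cox4i1, the common isoform of oxidase subunit 4, at 1613 CPM per kb. Medians per complex were 487 CPM per kb for complex IV, 483 for complex V, 296 for complex III, 213 for complex I and 128 for complex II. In complex I Ndufa6 was highest and Ndufs1, the largest iron-sulfur core subunit, lowest, at 1158 and 27.4 CPM per kb. In complex II Sdhb, the iron-sulfur subunit, was highest and Sdha, the flavoprotein, lowest, at 542 and 99.8 CPM per kb. Uqcrb was lowest in complex III at 16.8 CPM per kb, and Atp5g2, another c-ring gene, was lowest in complex V at 25.5 CPM per kb. The tissue isoforms Cox7a1, known from muscle and heart, and Ndufa4l2 lay at 10.9 and 3.58 CPM per kb. Exon lengths were available for 73 members, and the library type is not given in the sources used here, so levels per length hold only if reads were spread along the transcripts. Several subunit genes have near-identical processed copies in the mouse genome, so the low counts of genes such as Uqcrb are uncertain. The 13 subunits encoded in mitochondrial DNA were not analysed here, nor were Cox4i2, Cox6a2 and Cox8b.

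Of the averaged comparisons, time of day had the most called subunits. Averaged over the 3 genotypes and both oxygen levels, 37 of the 76 tested members were higher at CT16 than at CT4 and 0 were lower, against 10.9% of all tested genes called higher and 10.7% called lower. The fold change lay above 0 in 75 of 76 members, the exception being Ndufa4l2 (-0.20 ± 0.22, adjusted p = 0.565), and the median was 0.13 against -0.02 over all genes. Called members came from every complex, with 19 of 33 in complex I, 2 of 4 in complex II, 3 of 7 in complex III, 5 of 14 in complex IV and 8 of 17 in complex V. The changes were small, between 0.10 and 0.39 on the log2 scale for called members. They are differences after TMM scaling. In HLKO, and in Alb at 21% oxygen, all CT4 libraries had higher TMM factors than all CT16 libraries, which raises the scaled levels at CT16. As plain shares of counts, the subunits overlapped between the times in each pairing except BLKO at 21% oxygen, where CT16 was higher. How many calls would remain without the scaling was not tested. Members were measured more precisely than most genes, with a median SE of 0.046 against 0.0996 over all genes. Among the other tested genes of at least 100 CPM, 32.5% were called higher at CT16, with a median of 0.09, and among other genes with at most 1000 bp of exon 26.3% were, with a median of 0.10. Of 77 tested cytosolic ribosomal protein genes, which are also short and abundant, 41 were higher and 1 lower (median 0.16). What abundance and transcript length contribute to the subunits' share was not tested. Of 8 hepatocyte markers 5 were also higher at CT16, with sums of 80146 to 117333 CPM at CT4 and 75613 to 135495 CPM at CT16, as was the red cell gene Alas2 (0.60 ± 0.12), whereas 0 of 8 Kupffer and 0 of 7 endothelial markers were called. Their part in the subunits' values was not tested.

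**Figure D1:**
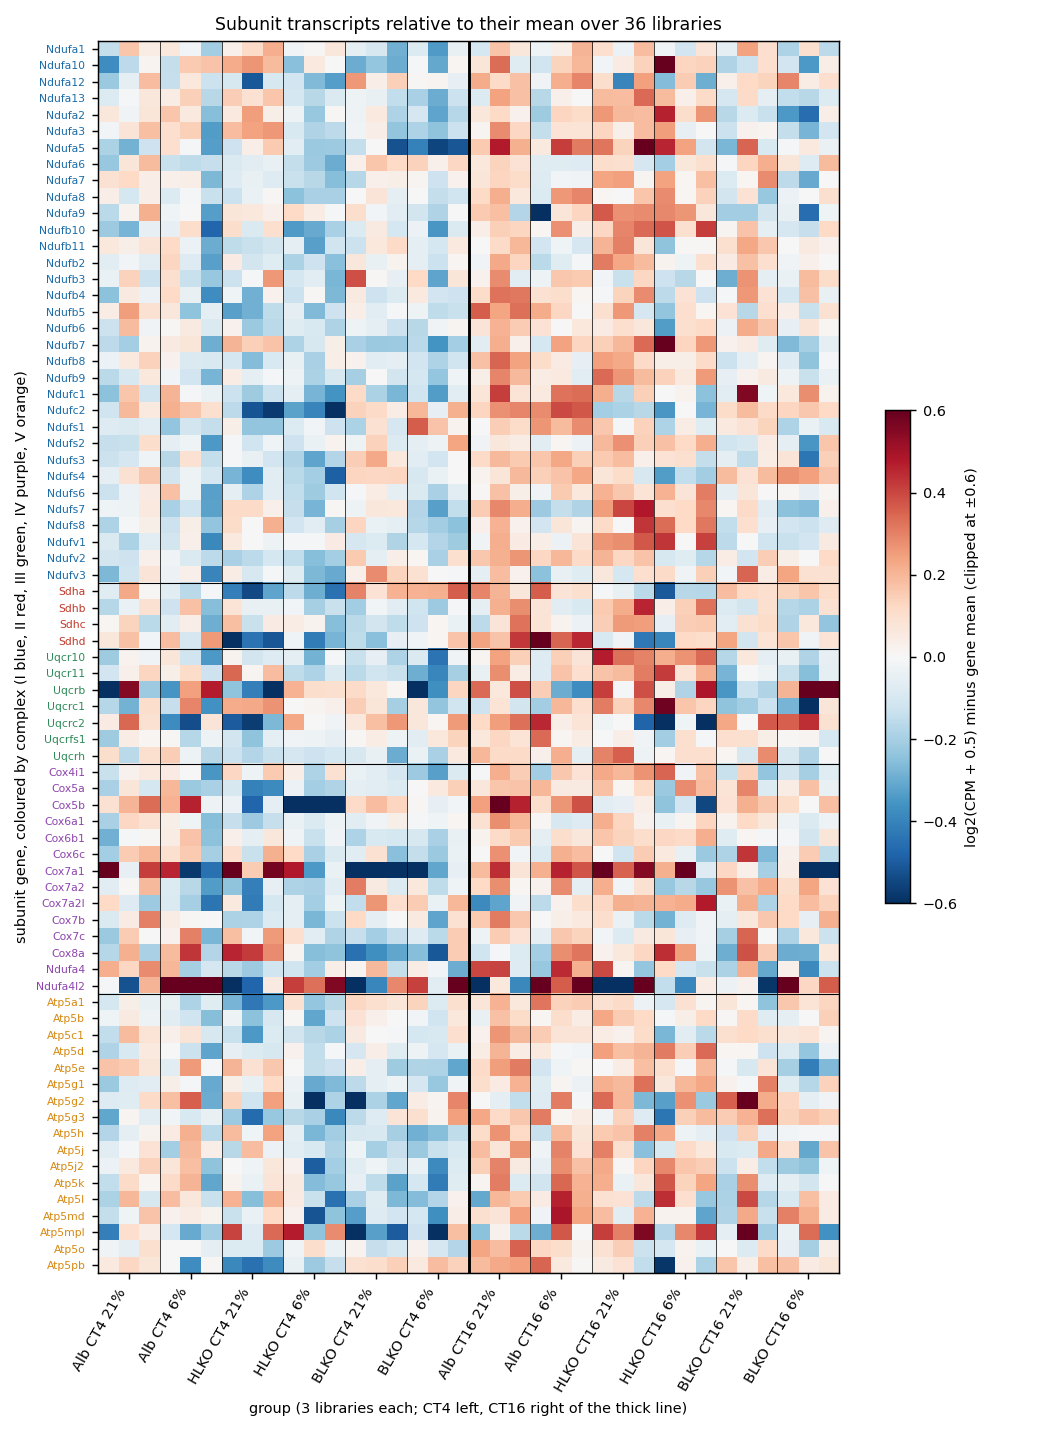
Level of each of 75 tested subunit genes (rows, grouped by complex) in each of 36 libraries (columns), as log2(CPM + 0.5) minus the gene's own mean; the colour scale is clipped at ±0.6 and the thick line separates CT4 from CT16. Most rows are bluer left of the line and redder right of it, and Cox5b is darkest in the 3 HLKO CT4 6% libraries.

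Ndufa5 (GRCm38 chromosome 6, 24518666 to 24528013), an accessory subunit of the complex I arm that reaches into the matrix, had the largest called time difference among members. Its lowest, median and highest levels were 89.6, 117 and 147 CPM in the 18 CT4 libraries and 108, 149 and 219.8 CPM in the 18 CT16 libraries. The ranges overlapped, but the CT16 mean exceeded the CT4 mean in each of the 6 pairings of genotype and oxygen, by 0.22 to 0.49. On average it was 1.31-fold higher (0.39 ± 0.07, adjusted p = 6.84e-05). Ndufb10, an accessory subunit of the membrane arm, had 273, 358 and 409.9 CPM at CT4 and 345, 414 and 508 CPM at CT16 (0.25 ± 0.05, adjusted p = 0.000446). Ndufc1, another membrane arm subunit, rose by 0.24 ± 0.06 (adjusted p = 0.00582), and Ndufv1, which carries the flavin where NADH is oxidised, by 0.18 ± 0.04 (adjusted p = 0.0027). In complex II the membrane anchor Sdhd rose by 0.23 ± 0.05 (adjusted p = 0.00279) and Sdhb by 0.15 ± 0.05 (adjusted p = 0.0261), whereas Sdha and Sdhc gave 0.10 ± 0.04, adjusted p = 0.118 and 0.11 ± 0.05, adjusted p = 0.0949.

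In complex III, Uqcr10, a small subunit of the membrane part, had 417, 535 and 595 CPM at CT4 and 499.6, 611 and 785 CPM at CT16 as lowest, median and highest values, an increase of 0.22 ± 0.05 (adjusted p = 0.000729). Uqcrh, the hinge protein, and Uqcr11 were also called. The core protein Uqcrc1 and the Rieske iron-sulfur protein Uqcrfs1 were not, at 0.01 ± 0.07 and 0.08 ± 0.04. In complex IV the structural subunits Cox5a and Cox5b rose by 0.20 ± 0.05 and 0.20 ± 0.06 (adjusted p = 0.00535 and 0.00911), and Cox7a2, Cox6b1 and Cox6a1 were called with smaller values. Cox4i1 stood at 0.11 ± 0.05, adjusted p = 0.103. In complex V the c-ring genes Atp5g3 and Atp5g1 rose by 0.22 ± 0.05 and 0.19 ± 0.04 (adjusted p = 0.00178 and 0.00191). The catalytic subunits Atp5a1 and Atp5b rose by 0.15 ± 0.04 and 0.13 ± 0.04. The calls of Ndufs1, Cox6a1, Uqcr11, Ndufb6, Atp5k and Ndufs8 were lost in 27, 24, 23, 21, 13 and 11 of the alternatives, most of them without a single library, and the remaining 31 calls were lost in 0.

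**Figure D2:**
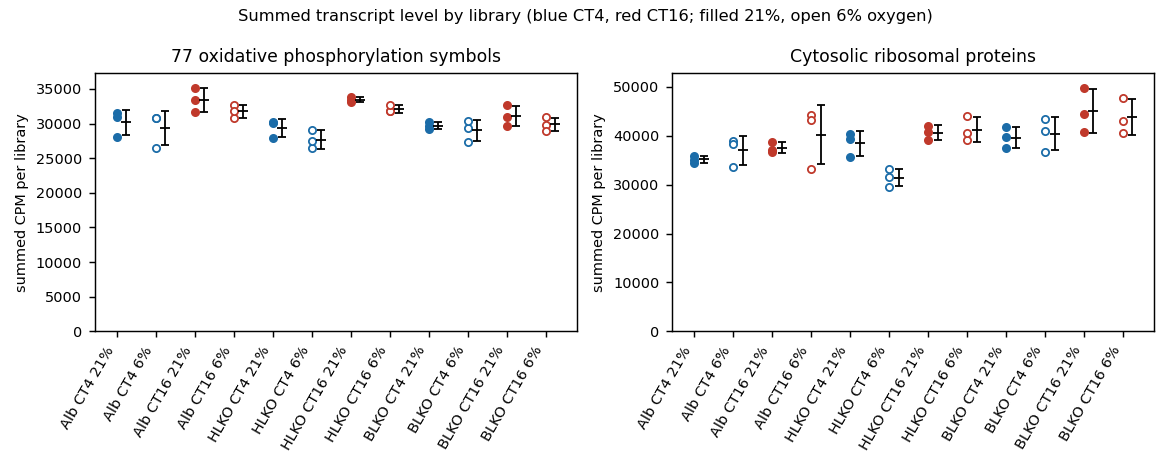
Summed CPM of the 77 symbols (left) and of the cytosolic ribosomal protein genes (right) in each library by group; points are libraries, bars are mean ± SD of 3, blue is CT4, red is CT16, filled is 21% and open is 6% oxygen. Levels are after TMM scaling. In each genotype the 21% group of CT16 has a higher mean summed subunit level than that of CT4, with a smaller step in BLKO.

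Within single genotypes the summed level of the 77 symbols after TMM scaling was compared between the times. The 3 Alb libraries at 21% oxygen summed to 28044, 30981 and 31458 CPM at CT4 and 31711, 35150.4 and 33417 CPM at CT16. The HLKO libraries went from 30224, 27928 and 30103 to 33848, 33101 and 33344 CPM, and the BLKO libraries from 29669, 30229 and 29169 to 29714, 32651 and 30991 CPM. The groups did not overlap in Alb and HLKO and overlapped in BLKO. Under 6% oxygen the Alb sums were 30797, 30822 and 26498 CPM at CT4 and 30779.8, 32665 and 31838 CPM at CT16, which overlapped. Those of HLKO were 29065, 26429.9 and 27526 and then 31869.5, 31757 and 32715 CPM, without overlap, and those of BLKO 29315, 27308 and 30364 and then 29773, 28912 and 30898 CPM, with overlap. As plain shares of counts, before scaling, the 21% groups overlapped also in Alb (2.88%, 3.36% and 3.20% at CT4, 3.13%, 3.22% and 3.26% at CT16) and in HLKO (3.13%, 2.94% and 3.09%, then 3.11%, 3.19% and 3.18%). In BLKO the 21% shares did not overlap (2.99%, 3.00% and 2.97%, then 3.11%, 3.23% and 3.22%). The HLKO shares under 6% oxygen overlapped (2.98%, 2.84% and 2.78%, then 2.94%, 3.03% and 3.02%). The TMM factors at 21% oxygen were 1.02 to 1.09 at CT4 and 0.917 to 0.990 at CT16 in Alb. In HLKO they were all above 1 at CT4 and 0.921 to 0.964 at CT16. The separation of the Alb and HLKO sums thus rests on the scaling. In BLKO the factors were 0.994 to 1.02 at CT4 and 0.991 to 1.05 at CT16, so the smaller step of its sums also rests on the scaling. By group means of the scaled levels at 21% oxygen, 70 of 76 members were higher at CT16 in Alb, 66 in HLKO and 55 in BLKO. The medians were 0.14, 0.21 and 0.07. Under 6% oxygen the counts of higher members were 68, 66 and 55. Over all genes 47.8% to 50.3% were higher in these pairings. Between 21% oxygen groups, all 3 libraries of CT16 lay above all 3 of CT4 for 19 members in Alb (9.01% of all genes), 36 in HLKO (16% of all genes) and 12 in BLKO (9.97% of all genes).

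Tested one genotype at a time at 21% oxygen, Alb gave 0 called members by edgeR and 0 by DESeq2, where 1.27% of all genes were called (0.707% higher and 0.559% lower), and 12 members had an unadjusted p under 0.05. HLKO gave 15 members higher and 0 lower, against 6.57% of all genes called higher and 5.29% lower. Its 3 largest were Uqcr10 (0.42 ± 0.11), Atp5a1 (0.41 ± 0.10) and Atp5pb, a peripheral stalk subunit of ATP synthase (0.40 ± 0.12). Atp5a1 had 822, 741 and 785 CPM at CT4 and 1063, 1083 and 973 CPM at CT16, without overlap, and its call held without any 1 library (adjusted p = 0.00541). The count of 15 fell to 4, 1 and 6 on leaving out HLKO CT4 21% A, B and C, to 3, 4 and 11 on leaving out HLKO CT16 21% A, B and C, and to 5 with no filter on low counts. BLKO gave 1, the c-ring gene Atp5g2, against 0.854% of all genes called higher. It had 10.3, 15.9 and 14.6 CPM at CT4 and 23.6, 29.5 and 21.4 CPM at CT16 (0.85 ± 0.20, adjusted p = 0.0186). That call was lost without BLKO CT4 21% A or C or BLKO CT16 21% B, at adjusted p of 0.13, 0.0516 and 0.0961. The time difference of HLKO or BLKO minus that of Alb was called for 0 members by edgeR and 0 by DESeq2, where 0.939% and 0.749% of all genes were called, and 2 and 7 members had an unadjusted p under 0.05. A difference in size between genotypes is therefore not shown.

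Low oxygen for 4 h moved few subunits. Averaged over genotypes and times, 2 of 76 members were higher and 9 lower under 6% oxygen, against 19.1% of all genes called higher and 16.9% called lower. The fold change lay below 0 in 62 of 76 members, with a median of -0.06 against 0.01 over all genes. Among other genes of at least 100 CPM 17.1% were higher and 14.6% lower. Complex I held 6 of the 9 lower members, complex IV 2 (Cox5b and Cox7a2) and complex V 1. The 12 known HIF targets used as a check gave 8 called higher and 0 lower, with Igfbp1 at 3.62 ± 0.15. Marker genes of other liver cells moved in the same comparison. Of 8 tested Kupffer cell markers 4 were higher (median 0.32), and their summed level ran from 141 to 320.4 CPM at 21% and from 171 to 588 CPM at 6% oxygen. Of 7 endothelial markers 4 were higher (median 0.29), with sums of 99.6 to 183 and 112 to 198 CPM. Their part in the subunits' values was not tested. In bulk liver a change in the number of cells of a type and a change in RNA per cell cannot be told apart.

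Ndufa4l2 (GRCm38 chromosome 10, 127514967 to 127517154), a paralog of Ndufa4 and a HIF target known to lower respiration, had the largest change. In Alb at CT4 it had 2.82, 1.83 and 3.35 CPM at 21% and 8.01, 9.89 and 5.14 CPM at 6% oxygen. The groups did not overlap, and the difference was 2.77-fold (1.47 ± 0.46, adjusted p = 0.0401), the single member called there, where 5.28% of all genes were called higher and 3.88% lower (9.16% in all). That call was lost without Alb CT4 21% A, B or C or Alb CT4 6% A or B, at adjusted p of 0.0827, 0.188, 0.0584, 0.079 and 0.178. In Alb at CT16 the libraries had 1.37, 2.99 and 2.05 CPM at 21% against 5.69, 3.79 and 5.93 CPM at 6% oxygen. In HLKO at CT4 they had 0.479, 1.9 and 2.97 against 3.95, 3.71 and 4.4 CPM. In HLKO at CT16 they had 0.415, 0.609 and 5.14 against 2.52, 2.05 and 2.95 CPM, so that 1 library at 21% exceeded all 3 at 6%. The mean was higher under 6% oxygen in 6 of 6 pairings, by 0.27 to 1.49, and the average call (0.92 ± 0.21, adjusted p = 0.000943) held without any 1 library. Ndufa4 itself, now assigned to complex IV, gave -0.09 ± 0.07, adjusted p = 0.307. The hypoxia effect on Ndufa4l2 in HLKO minus that in Alb was -0.43 ± 0.74, adjusted p = 0.81 at CT4 and -1.01 ± 0.80, adjusted p = 0.73 at CT16.

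**Figure D3:**
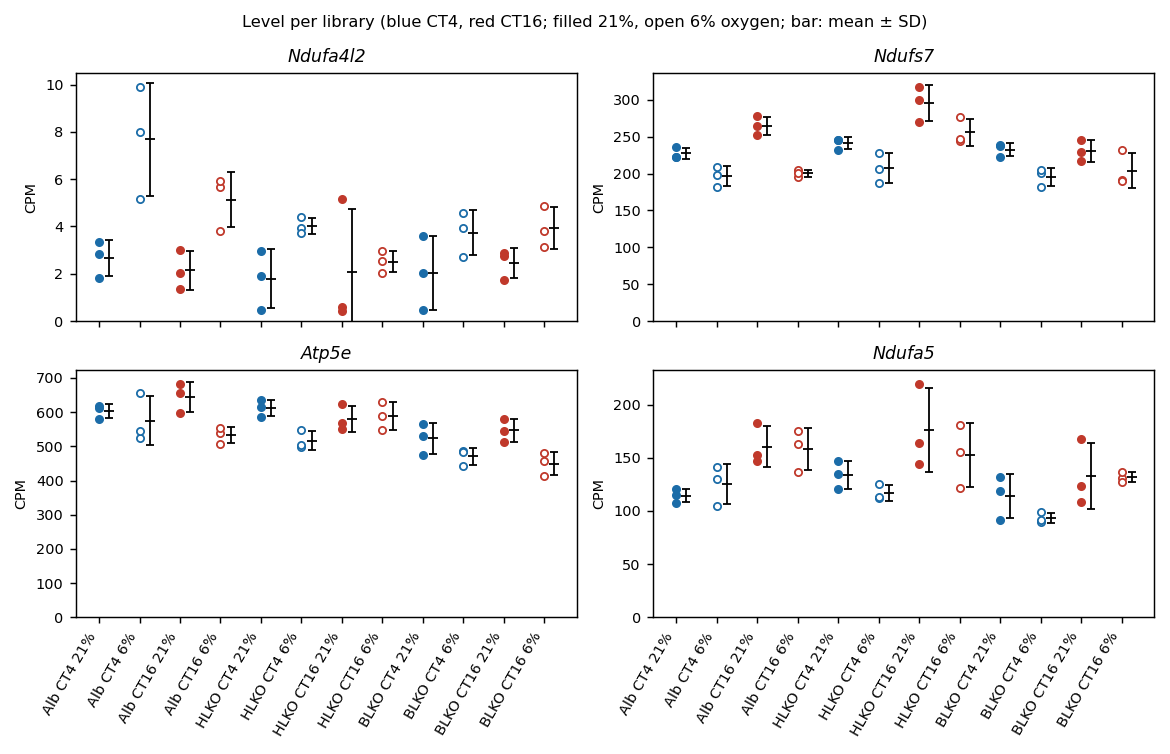
Level in CPM per library of Ndufa4l2, Ndufs7, Atp5e and Ndufa5 in the 12 groups; points are libraries, bars are mean ± SD of 3 (cut at 0 on the axis), blue is CT4, red is CT16, filled is 21% and open is 6% oxygen. The group mean of Ndufa4l2 is higher and that of Ndufs7 lower at 6% than at 21% oxygen in all 6 pairings, and Ndufa5 is higher at CT16.

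Ndufs7 (GRCm38 chromosome 10, 80249121 to 80256794), the complex I core subunit whose iron-sulfur cluster hands electrons to ubiquinone, was the member with the lowest adjusted p for low oxygen. It had 217, 242 and 317 CPM in the 18 libraries at 21% and 181, 203 and 277 CPM in the 18 at 6% oxygen as lowest, median and highest values. The mean was lower under 6% oxygen in 6 of 6 pairings, and on average it fell by 0.24 ± 0.04 (1.18-fold lower, adjusted p = 8.73e-06). In Alb at CT16 its 3 libraries had 253, 278 and 264 CPM at 21% and 195, 205 and 200.4 CPM at 6% oxygen, without overlap (-0.40 ± 0.10, adjusted p = 0.00455). It was the single member called there, where 6.76% of all genes were called lower, and the call held without any 1 library. The other lower members of complex I were Ndufa3 (-0.15 ± 0.05), Ndufb11, Ndufa13, Ndufb2 and Ndufa7, between -0.13 ± 0.04 and -0.11 ± 0.04. Atp5e, the epsilon subunit of the ATP synthase stalk, had 475, 583 and 683 CPM at 21% and 412, 516 and 656 CPM at 6% oxygen (-0.17 ± 0.04, adjusted p = 0.00125). Sdhd was higher in 6 of 6 pairings (0.15 ± 0.05, adjusted p = 0.0346), but this call was lost in 16 of 36 fits that left out 1 library, as were those of Cox7a2 in 10 and Ndufa7 in 15 of 36.

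HLKO at CT4 had the most members called for low oxygen in 1 pairing, with 1 higher and 5 lower, against 7.71% and 6.72% of all genes. Cox5b had 603, 445 and 593 CPM at 21% and 325, 255 and 380.4 CPM at 6% oxygen. All 3 libraries at 6% lay below all 3 at 21%, and the difference was 1.71-fold (-0.77 ± 0.14, adjusted p = 0.000141), which held without any 1 library. In Alb at CT4 Cox5b had 659, 712 and 780.0 against 713, 851 and 605 CPM, which overlapped. The other 4 lower members were Cox8a (-0.54 ± 0.17), a small oxidase subunit, Ndufa3 (-0.37 ± 0.11), Uqcr11 (-0.33 ± 0.11) and Atp5h (-0.32 ± 0.11), a peripheral stalk subunit. Uqcrc2, a core protein of complex III, rose from 80.4, 76.7 and 94.3 to 134, 114 and 112 CPM (0.52 ± 0.18, adjusted p = 0.0461). The count of 6 fell to 2, 3 and 2 on leaving out HLKO CT4 21% A, B and C, to 4, 1 and 1 on leaving out HLKO CT4 6% A, B and C, and to 4 with the replicate letter as a block. HLKO at CT16 gave 1 lower member, Ndufv2, an iron-sulfur subunit beside the flavin site (-0.28 ± 0.09, adjusted p = 0.0452), against 4.34% of all genes called lower and 5.4% higher (9.74% in all), and the call was lost without each of the 6 libraries in turn (adjusted p from 0.0632 to 0.136). BLKO at CT4 gave 0 by edgeR and 0 by DESeq2, against 4.63% of all genes (2.57% higher and 2.06% lower), and 3 members had an unadjusted p under 0.05. BLKO at CT16 gave 1 higher, Uqcrb (6.63, 7.82 and 7.51 against 9.97, 15.7 and 13.9 CPM, 0.86 ± 0.27, adjusted p = 0.0433), against 4.77% of all genes called higher and 4.63% lower (9.4% in all). It was lost with DESeq2 (adjusted p = 0.0532) and without BLKO CT16 21% A, B or C or BLKO CT16 6% B or C (adjusted p from 0.0807 to 0.197).

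**Figure D4:**
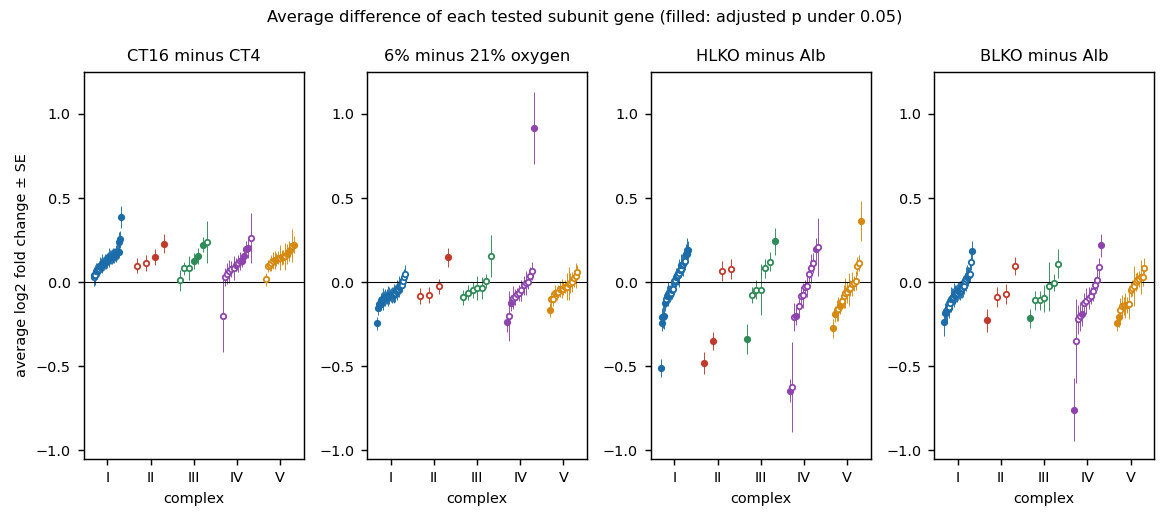
Average log2 fold change ± SE (vertical axis) of each of 75 tested subunit genes, grouped by complex, for CT16 minus CT4, 6% minus 21% oxygen, HLKO minus Alb and BLKO minus Alb; filled points have an adjusted p under 0.05 and the line marks 0. Time gives small values nearly all above 0 in every complex, whereas HLKO spreads the members to both sides.

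HLKO livers differed from controls in single subunits on both sides. Averaged over times and oxygen levels, 7 of 76 members (9.21%) were higher and 15 (19.7%) lower in HLKO, against 12.3% and 14.3% of all genes, with a median of -0.04 against 0.01. Among other genes of at least 100 CPM 19.2% were higher and 19.2% lower, so the share of lower members was near that of abundant genes. The largest decrease was that of Cox5b (GRCm38 chromosome 1, 36691449 to 36693681), a zinc-binding structural subunit of cytochrome oxidase. It had 605, 739 and 936 CPM in the 12 Alb libraries and 255, 547 and 635 CPM in the 12 HLKO libraries as lowest, median and highest values. The ranges overlapped between 605 and 635 CPM, and Cox5b was 1.56-fold lower (-0.65 ± 0.07, adjusted p = 2.52e-08). Ndufc2, a membrane arm subunit of complex I, had 202, 252 and 289 CPM in Alb and 136, 178 and 219.7 CPM in HLKO (-0.51 ± 0.06, adjusted p = 4.95e-08). Sdhd (GRCm38 chromosome 9, 50596357 to 50603812) had 166, 206 and 279 CPM in Alb and 117, 141 and 193 CPM in HLKO (-0.48 ± 0.07, adjusted p = 4.04e-06). The flavoprotein Sdha was at 256, 300.2 and 367 CPM in Alb and 196, 243 and 283 CPM in HLKO (-0.35 ± 0.05, adjusted p = 1.65e-05). These 4 genes were lower in HLKO by group mean in 4 of 4 pairings of time and oxygen, and each call held without any 1 library.

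**Figure D5:**
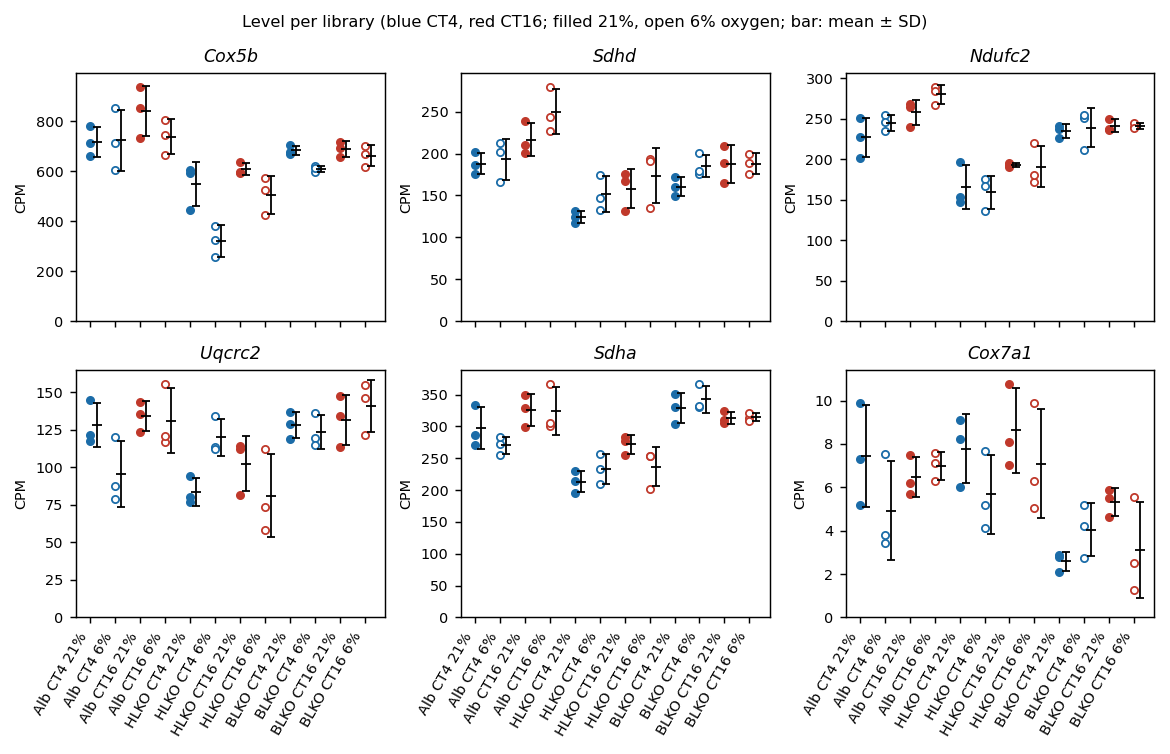
Level in CPM per library of Cox5b, Sdhd, Ndufc2, Uqcrc2, Sdha and Cox7a1 in the 12 groups; points are libraries, bars are mean ± SD of 3, blue is CT4, red is CT16, filled is 21% and open is 6% oxygen. Cox5b, Sdhd, Ndufc2 and Sdha have lower group means in HLKO than in Alb in each pairing, Cox5b lowest in HLKO CT4 6%, and Cox7a1 is lower in BLKO.

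Further members lower in HLKO included Uqcrc2 (-0.34 ± 0.09), Atp5pb (-0.28 ± 0.06), Ndufs4 (-0.24 ± 0.05), an accessory subunit whose loss causes a Leigh-like disease in mice, and Atp5c1, the gamma subunit of the ATP synthase rotor (-0.19 ± 0.05). Members higher in HLKO included Atp5mpl, a small membrane subunit of ATP synthase (0.36 ± 0.12, adjusted p = 0.0218), and the complex III core protein Uqcrc1 (0.24 ± 0.08, adjusted p = 0.0232). Cox7a2l (0.19 ± 0.07, adjusted p = 0.0301) and Ndufv1 (0.19 ± 0.05, adjusted p = 0.0074) were also higher. Uqcrc1 was higher by group mean in 4 of 4 pairings, whereas Uqcrc2, the other core protein of complex III, was lower in 3 and higher at CT4 under 6% oxygen (134, 114 and 112 CPM in HLKO, 87.7, 78.7 and 120.3 CPM in Alb), its log2 ratios running from -0.69 to 0.33. Within complex II, Sdhb and Sdhc gave 0.08 ± 0.06, adjusted p = 0.354 and 0.07 ± 0.06, adjusted p = 0.419, beside the lower Sdha and Sdhd. The Uqcrc1 call was lost without Alb CT4 6% C, Alb CT16 6% A or HLKO CT16 6% A (adjusted p = 0.0563, 0.0501 and 0.0575), and the Cox7a2l call in 7 of 24 such fits (up to 0.0692). The count of 22 called members was 14 without HLKO CT16 6% A. Among 45 tested assembly factors 4 were higher and 8 lower in HLKO, beside 12.3% and 14.3% of all genes. The lower ones included Nubpl, a complex I iron-sulfur assembly factor (-0.67 ± 0.14), and Ndufaf1 (-0.50 ± 0.15). Of 13 TCA cycle genes 2 were higher and 6 lower, with Idh3a at -0.55 ± 0.08. Summed hepatocyte markers ran from 80146 to 131072 CPM in Alb and from 94168 to 135495 CPM in HLKO, 4 of 8 being called higher and 1 lower, and their part in the subunits' values was not tested.

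At 21% oxygen alone, HLKO at CT4 gave 8 members lower and 0 higher, against 5.61% of all genes called lower and 4.1% higher (9.71% in all). Sdhd had 186, 201 and 176 CPM in Alb and 117, 131 and 124 CPM in HLKO (-0.60 ± 0.14, adjusted p = 0.00622). Atp5pb had 539, 565 and 546 against 396, 379.9 and 398 CPM (-0.49 ± 0.12, adjusted p = 0.00895). Neither gene's groups overlapped, and both calls held without any 1 library. The others were Uqcrc2 (-0.61 ± 0.18), Sdha (-0.48 ± 0.11), Ndufc2 (-0.46 ± 0.11), Ndufb5, Atp5a1 and Ndufs4. The count of 8 fell to 2 on leaving out Alb CT4 21% B, and to 4 and 3 on leaving out HLKO A and B of that time and oxygen level. The Sdha call was lost in the first of these (adjusted p = 0.0658). At CT16 edgeR called Ndufc2 (239.8, 265 and 268 against 190.4, 192 and 195 CPM, -0.42 ± 0.11, adjusted p = 0.03) and Cox5b (-0.47 ± 0.14, adjusted p = 0.0486), against 1.51% of all genes called lower and 2.06% higher (3.56% in all). Both calls were lost without each of the 6 libraries in turn, at adjusted p up to 0.126 and 0.173.

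BLKO livers had 2 of 76 members (2.63%) higher and 11 (14.5%) lower than Alb on average, against 9.07% and 10.2% of all genes, with a median of -0.07 against 0.01. Among other genes of at least 100 CPM 19.4% were higher and 21.3% lower, so both member shares lay below those of abundant genes. The Alb libraries are the same as in the HLKO comparison. By group means of the scaled levels, 61 of 76 members were lower in BLKO at CT16 and 21% oxygen and 62 at CT16 and 6% oxygen, against 44 and 46 at CT4. Of all genes 50.1% to 51.3% were higher in BLKO in these pairings. At CT16 the TMM factors of all BLKO libraries exceeded those of all Alb libraries, which lowers the scaled levels of BLKO. As plain shares of counts, the subunits at CT16 and 6% oxygen were higher in BLKO (3.08%, 3.06% and 3.14%) than in Alb (3.02%, 2.91% and 2.94%). At CT16 and 21% oxygen these shares overlapped. How many members would be lower without the scaling was not tested. Cox7a1 (GRCm38 chromosome 7, 30184144 to 30186078), the isoform of oxidase subunit 7a known from muscle and heart, fell most. It had 3.42, 6.71 and 9.88 CPM in the 12 Alb libraries and 1.26, 3.54 and 5.89 CPM in the 12 BLKO libraries as lowest, median and highest values (-0.76 ± 0.19, adjusted p = 0.00323). At CT4 and 21% oxygen its libraries had 9.88, 5.18 and 7.31 CPM in Alb and 2.8, 2.86 and 2.09 CPM in BLKO, without overlap (-1.53 ± 0.41, adjusted p = 0.0159). It was the single member called there, against 3.67% of all genes called lower, and the call was lost without Alb CT4 21% A (adjusted p = 0.076) or BLKO CT4 21% C (0.0947). Cox7a2, the isoform of the liver, gave 0.09 ± 0.06, adjusted p = 0.33.

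Of the other members lower in BLKO, Atp5e had 508, 587 and 683 CPM in Alb and 412, 484 and 581 CPM in BLKO (-0.24 ± 0.05, adjusted p = 0.000321). Sdhd fell by 0.23 ± 0.07 (adjusted p = 0.0131), Uqcr11 by 0.22 ± 0.06 (adjusted p = 0.00457) and Ndufa5 by 0.24 ± 0.08 (adjusted p = 0.0339). Atp5e, Uqcr11 and Sdhd kept their calls without any 1 library, and Ndufa5 lost its call in 10 of 24 such fits (adjusted p up to 0.0818). The higher members were Cox7a2l (0.22 ± 0.07, adjusted p = 0.0178), lost without BLKO CT16 21% B (adjusted p = 0.0506), and Ndufv3, an accessory subunit near the flavin site (0.19 ± 0.06, adjusted p = 0.0219), lost in 4 of 24 such fits (up to 0.0643). The count of 13 was 8 without Alb CT4 6% A or BLKO CT4 21% C. At CT16 and 21% oxygen the single called member was Ndufb8, a membrane arm subunit often used to gauge complex I, with 429, 483 and 449 CPM in Alb and 348, 366 and 384 CPM in BLKO (-0.31 ± 0.09, adjusted p = 0.0335), against 3.24% of all genes called lower. That call was lost without Alb CT16 21% B or C or BLKO CT16 21% A or B (adjusted p from 0.0957 to 0.165) and with no filter on low counts (0.0648). Among related genes 6 of 45 assembly factors were higher and 0 lower in BLKO, with Ndufaf6 at 0.44 ± 0.06. Of 77 cytosolic ribosomal protein genes 32 were higher and 2 lower. Beside these, 9.07% of all genes were called higher and 10.2% lower. Of 14 tested regulators of mitochondrial gene expression 2 were lower, Ppara (-0.68 ± 0.10) and Ppargc1b (-0.89 ± 0.27). Kupffer markers summed to 141 to 588 CPM in Alb and 178 to 320.4 CPM in BLKO, 2 of 8 being called lower, and their part was not tested.

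Related genes outside the complexes were also called. Of all genes 10.9% were called higher and 10.7% lower at CT16, and 19.1% and 16.9% under 6% oxygen. At CT16 5 of 45 assembly factors were higher and 0 lower, with Coa6, a copper chaperone of complex IV, at 0.52 ± 0.06. Of 69 tested mitochondrial ribosomal protein genes 14 were higher and 0 lower (median 0.07), and of 13 TCA cycle genes 5 were higher and 1 lower, with Cs, citrate synthase, lower (-0.14 ± 0.05). Esrra, a nuclear receptor that drives respiratory genes, was higher at CT16 (0.36 ± 0.06), while Pprc1, a coactivator related to PGC-1, and Nrf1 were lower (-0.79 ± 0.13 and -0.32 ± 0.10). Under 6% oxygen 4 assembly factors were higher and 8 lower, with Tmem186 at -0.87 ± 0.13, and 1 of 14 regulators was higher and 5 lower, among them Ppara (-0.76 ± 0.08) and Yy1 (-0.62 ± 0.09). Of the 13 TCA cycle genes 4 were higher and 2 lower under 6% oxygen, with Cs at 0.50 ± 0.05 and Ogdh, a subunit of the oxoglutarate dehydrogenase complex, at -0.57 ± 0.10.

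Upstream sequence was examined because 37 members rose at CT16. Windows of 250 bases before the RefSeq start sites (build GRCm38.p6) were found for 64 members and 27018 genes. All motifs were searched on both strands. The core motif of NRF1, a known activator of respiratory genes, lay in 11 member windows (17.2%) and in 4.23% of the windows of the 27018 genes. The ETS core bound by GABPA, CCGGAAG, lay in 12 (18.8%) and in 7.83%. The hypoxia response core ACGTG lay in 13 (20.3%) and in 18.5%, the E-box CACGTG, which contains it, in 6 (9.38%) and 6.86%, and TAGGTCA, read by REV-ERB and ROR, in 2 (3.13%) and 2.55%. The YY1 core lay in 0 and 0.248%, and the ERR motif TCAAGGTCA in 1 (1.56%) and 0.422%. A match describes letters and shows no binding. The 27018 genes include many outside the 9483 tested here, and the 64 members include members not called for time. Shares among tested genes only, or among called members only, were not computed. The motif shares therefore do not bear on the rise at CT16. Shown 5′ to 3′ on the gene's strand are the bases next to the start site that lie in no annotated exon, for 4 examples chosen after their values were seen: Sdhd, Atp5e and Cox5b for their differences above, and Ndufb4 to show an NRF1 match. Capitals mark NRF1 and ETS matches, in either orientation. Sdhd (chr9:50603850-50603909, minus strand), whose window runs into the neighbouring gene Timm8b, has an ETS match, as has Atp5e (chr2:174464106-174464351, minus strand). Ndufb4 (chr16:37654454-37654618, minus strand), a complex I subunit higher at CT16 (0.17 ± 0.05), has an NRF1 match, and Cox5b (chr1:36691237-36691448, plus strand) has neither.
Sdhd: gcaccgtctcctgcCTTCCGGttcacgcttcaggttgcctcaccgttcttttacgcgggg
Atp5e: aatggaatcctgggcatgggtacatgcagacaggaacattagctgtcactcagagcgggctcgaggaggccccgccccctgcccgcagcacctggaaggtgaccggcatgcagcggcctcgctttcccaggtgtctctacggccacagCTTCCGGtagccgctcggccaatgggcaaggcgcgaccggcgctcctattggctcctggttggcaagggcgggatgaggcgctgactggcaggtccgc
Ndufb4: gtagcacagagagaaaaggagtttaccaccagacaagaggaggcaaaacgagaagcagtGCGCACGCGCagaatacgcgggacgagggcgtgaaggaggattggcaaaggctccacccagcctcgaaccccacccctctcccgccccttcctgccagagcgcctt
Cox5b: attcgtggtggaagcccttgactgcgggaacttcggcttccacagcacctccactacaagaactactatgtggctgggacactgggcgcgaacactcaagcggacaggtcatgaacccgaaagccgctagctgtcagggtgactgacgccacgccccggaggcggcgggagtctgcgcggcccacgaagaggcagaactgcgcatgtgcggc

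The hypoxia effect differed between genotypes or times in few members. In HLKO minus Alb at CT4, the test of the difference itself called Cox5b (-0.79 ± 0.19, adjusted p = 0.0322) and Uqcrc2 (0.93 ± 0.25, adjusted p = 0.0475), against 1.58% of all genes. For Uqcrc2 the Alb libraries at CT4 had 118, 145 and 122 CPM at 21% and 87.7, 78.7 and 120.3 CPM at 6% oxygen, beside the HLKO values above that moved the other way. In HLKO, the hypoxia effect at CT16 minus that at CT4 was called for Uqcrc2 (-0.84 ± 0.25, adjusted p = 0.0339), against 8.64% of all genes, its CT16 libraries having 112, 114 and 81.6 CPM at 21% and 58, 112 and 73.3 CPM at 6% oxygen. Each of these calls was lost in 7 to 9 of the 12 fits that left out 1 library, with adjusted p up to 0.101 for Cox5b, 0.154 and 0.12 for Uqcrc2. The comparisons of HLKO with Alb at CT16, of BLKO with Alb at CT4 and at CT16, and of the times in Alb and BLKO gave 0 called members by edgeR and 0 by DESeq2. Of all genes 0.875%, 0.19%, 0.116%, 0.232% and 0.833% were called there, and 3, 2, 3, 1 and 4 members had an unadjusted p under 0.05.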

How the data were processed

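Mouse liver RNA was sequenced, and 36 libraries in 12 groups of 3 were used. The series lists 39 samples, and 3 double-knockout samples are not analysed here. Per the file headers, the authors deposited for every library a raw column with a count per gene. They also deposited a normalized column, a signal made by scaling: it equals the raw count times 1 constant per library (largest relative range 9.75e-15) and was not tested. Tools named in the submitters' processing notes are HTSeq, STAR 2.4.2a, cutadapt and DESeq2, with build mm10. Strand and library type are not given in the sources used here. The members, gene lists and tests were chosen with earlier results of these data known.

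Counts were filtered with filterByExpr (count minimum 10), TMM-normalized and entered, from all 36 libraries, into 1 model in edgeR 4.0.16 (R 4.3.3), for 26 comparisons. SE is the log2 fold change divided by the root of the quasi-likelihood F. Alternatives were DESeq2 1.42.0, RLE scaling, no filter, a replicate block and leaving out each library. No 2 libraries of a group looked like 1 library deposited again, the chi-square over its degrees of freedom being 3.91 to 31.8. Letters were not used as pairs, since the correlations of all 3 letters exceeded 0.1 in 0 of 13 comparisons. Single letters reached 0.205 (A, time in Alb at 21% oxygen), and no label says whether a letter marks a batch. Named members were fixed isoforms and catalytic subunits, in each comparison up to 4 called members from either end of the fold changes, and the extremes by level in each complex. Any others were chosen after their values were seen. The fit was also run on simulated counts, the outcome of which is not given here. Positions and exon lengths came from GENCODE M21 (GRCm38), matched for 73 members, and upstream sequences from RefSeq. Figures used matplotlib 3.10.9.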

Additional observations from a re-analysis of the deposited data

Results flagged for a closer look

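Differences of an effect between groups, past the threshold of edgeR's test of that difference (Benjamini-Hochberg adjusted), were found for 2 members. The hypoxia effect on Cox5b in HLKO at CT4 was lower than in Alb by a log2 difference of -0.79 (SE 0.19, adjusted p = 0.0322). That on Uqcrc2 was higher by 0.93 (SE 0.25, adjusted p = 0.0475), and in HLKO it was lower at CT16 than at CT4 by -0.84 (SE 0.25, adjusted p = 0.0339).

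Other members moved in opposite directions in different groups, with all 3 libraries of one group beyond all 3 of the other each time. This pattern was seen in 6 members for genotype (7.89%, against 8.81% of all genes), 7 for oxygen (9.21% against 10.2%) and 9 for time (11.8% against 14.1%), so the members' shares did not exceed those of all genes. Those among the named isoforms and catalytic subunits follow, the value being the gap between the log2 ratios of means. Atp5g2 was higher in BLKO than in Alb at CT16 and lower at CT4, both at 21% oxygen (gap 0.92), and in BLKO it was higher under 6% oxygen at CT4 and lower at CT16 (0.97). edgeR's tests of these differences did not call them (adjusted p = 0.158 and 0.104). Ndufs1 was higher in BLKO than in Alb at CT4 and lower at CT16 under 6% oxygen (0.71), higher at CT16 in Alb at both oxygen levels and lower at CT16 in BLKO under 6% oxygen (0.71), and under hypoxia higher in Alb at CT16 and lower in Alb at CT4 and in BLKO at CT16 (0.36). The hypoxia differences were not called between the times in Alb (adjusted p = 0.704) or between BLKO and Alb at CT16 (0.55), and the other differences of Ndufs1 were not tested. Cox6a1 was higher under hypoxia in HLKO at CT4 and lower in Alb and BLKO at CT16 (0.36), and higher at CT16 in HLKO at 21% and lower in BLKO at 6% oxygen (0.33). Uqcrfs1 was higher under hypoxia in HLKO at CT4 and lower in BLKO at CT16 (0.21). At 21% oxygen Cox8a was higher at CT16 in BLKO and lower in HLKO (0.80). Sdha was higher at CT16 in Alb under 6% and in HLKO under 21% oxygen and lower in BLKO under 6% oxygen (0.47). The differences of Cox6a1, Uqcrfs1, Cox8a and Sdha were not tested.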

How the results depend on the processing

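Of 124 calls of single members, 63 kept their side of the threshold under every alternative, 61 were lost in at least 1 fit without a library, 27 with no filter, 13 with the replicate block, 2 with RLE scaling and 1 with DESeq2. No fold change reversed among the 163 member results recomputed, and RLE scaling moved the median of all genes by at most 0.019. DESeq2 called 17 in place of 11 members for average hypoxia, 3 in place of 1 for hypoxia in Alb at CT16 and 3 in place of 1 for its time dependence in HLKO. With no filter the counts were 5 in place of 15 for time in HLKO, 0 in place of 1 for hypoxia in HLKO at CT16 and for BLKO against Alb at CT16, and 1 in place of 2 for HLKO against Alb at CT16 (also 1 with RLE scaling). The replicate block was a fit with the replicate letter as a term, although no label says that letters pair libraries. It gave 1 in place of 2 for HLKO against Alb at CT16 and for the hypoxia difference of HLKO and Alb at CT4. It left 34 of 37 calls for average time. The cause of these shifts was not tested.

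Without 1 library each, the counts ran from 31 to 40 for average time, 8 to 16 for hypoxia, 14 to 23 for HLKO and 8 to 19 for BLKO. For hypoxia they ran from 0 to 2 in Alb at CT4, 1 to 4 and 0 to 1 in HLKO at CT4 and CT16, and 0 to 2 in BLKO at CT16. At 21% oxygen they ran from 2 to 9 and 0 to 0 for HLKO at CT4 and CT16, 0 to 1 for BLKO at both times, and 1 to 11 and 0 to 1 for time in HLKO and BLKO. For the hypoxia difference they ran from 0 to 3 between times in HLKO and 0 to 3 between HLKO and Alb at CT4. Members of few counts, Ndufa4l2, Cox7a1 and Uqcrb, are limited by depth.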
